A study of Homo sapiens with 6 samples.

Results

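The EGF receptor, its relatives ERBB2 and ERBB3, 6 ligands and the inhibitor ERRFI1 were examined in A431 cells with and without the desmosomal cadherin Dsg2. These 10 genes were chosen by name from the 21462 gene symbols counted in the RNA sequencing, as the receptors EGFR, ERBB2 and ERBB3, the ligands AREG, EREG, HBEGF, TGFA, BTC and EPGN, and ERRFI1. A431 is an established human cell line from an epidermoid carcinoma, and it is widely used to study EGFR because it carries extra copies of that gene. Control cells (A431CT, wild type for DSG2) were compared with A431 cells in which DSG2 had been knocked out by CRISPR/Cas9 (Dsg2KO), with 3 libraries of each. Both lines were grown in DMEM with 10% serum, and the labels name no treatment. Every Dsg2KO library comes from the edited line, and whether it is 1 clone is not given in the sources used here, so the loss of Dsg2 and other differences between the lines cannot be told apart.

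Ligands of the EGF family are made as membrane proteins and are released by metalloproteases. They bind EGFR on the same or a neighbouring cell, EGFR pairs with itself or with ERBB2 or ERBB3, and the phosphorylated tails recruit adaptors that activate the RAS-ERK and PI3K pathways. Keratinocytes make several of these ligands themselves and depend on EGFR for growth and migration, and the pathway limits itself through inhibitors such as ERRFI1, Sprouty proteins and dual-specificity phosphatases that ERK activity induces.

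The genes were first placed in the genome, since 4 of the ligands are neighbours. On GRCh38, EPGN (chr4:74308470-74316789), EREG (chr4:74365145-74388749) and AREG (chr4:74445136-74455005) lie in a row on the plus strand, and BTC (chr4:74744759-74794523) lies on the minus strand next to them. HBEGF is at chr5:140332843-140346603 and TGFA at chr2:70447284-70554193, both on the minus strand. The 250 bases before the RefSeq start (GRCh38.p14) were compared for the 9 members that have such a window. They are shown for EGFR, the most abundant member, and HBEGF, the member past both thresholds of the test, and the last 50 of them for the 3 neighbouring ligands on the plus strand. Capitals mark the GC box (GGGCGG on either strand), the TATA box (TATAAA) or both, each read 5′ to 3′ on the gene's strand.
EGFR, plus strand, chr7:55018767-55019016: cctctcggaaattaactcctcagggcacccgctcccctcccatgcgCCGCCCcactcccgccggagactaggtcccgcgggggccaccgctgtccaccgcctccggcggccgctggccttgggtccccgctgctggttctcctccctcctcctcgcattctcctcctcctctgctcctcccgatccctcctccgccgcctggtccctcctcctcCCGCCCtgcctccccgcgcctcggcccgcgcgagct
HBEGF, minus strand, chr5:140346604-140346853: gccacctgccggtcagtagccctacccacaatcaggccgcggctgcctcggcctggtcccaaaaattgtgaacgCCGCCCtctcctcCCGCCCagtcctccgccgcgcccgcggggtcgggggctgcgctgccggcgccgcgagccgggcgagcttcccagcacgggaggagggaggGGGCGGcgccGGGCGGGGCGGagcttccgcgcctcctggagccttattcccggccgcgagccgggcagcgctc
AREG, plus strand, chr4:74445086-74445135: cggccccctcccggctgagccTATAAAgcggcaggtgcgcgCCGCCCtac
EREG, plus strand, chr4:74365095-74365144: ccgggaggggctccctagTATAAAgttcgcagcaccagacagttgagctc
EPGN, plus strand, chr4:74308420-74308469: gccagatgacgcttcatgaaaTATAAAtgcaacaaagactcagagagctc
The windows of EGFR, HBEGF, TGFA and ERRFI1 held 73.6%, 76.4%, 75.6% and 75.2% G and C, against a median of 58.0% over 27305 promoters. HBEGF had 5 GC boxes, 2 of which overlap, TGFA 3, EGFR 2 and ERRFI1 and AREG 1 each, and 42.3% of all promoters held at least 1. TATAAA was found in AREG, EREG and EPGN, between 32 and 24 bases before the start, and in none of the other 6 windows, and 11.1% of all promoters held it on either strand. Only these exact letters were searched, so close variants, such as TATATATA in the ERRFI1 window, were not counted. The CRE (TGACGTCA, in 1.77% of promoters) was found in AREG, the AP-1 motif (TGANTCA, in 6.6%) in ERBB2, and the NF-κB motif (in 9.57%) once in TGFA and at 2 places in BTC. These matches describe the letters only.

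The libraries held between 12845719 and 16255692 counts. CPM are TMM-scaled counts per 1e6 counts of a library, and 3 counts, taken as the floor, equal 0.184 to 0.236 CPM, a limit that covers counting error only. DSG2 itself was at 323 ± 6.08 CPM (SD, n = 3) in A431CT and 51.9 ± 2.88 CPM in Dsg2KO, 16.1% of the control level. Of 15 epithelial and keratinocyte markers 13 passed the count filter, with summed levels of 4841 to 4847 CPM in A431CT and 5008 to 5174 CPM in Dsg2KO libraries, and KRT14 and PKP1 were at or under the floor. By adjusted p (edgeR) 4 of the 13 were higher and 3 lower, beside 14.3% and 15.3% of all tested genes. Among the higher were KRT8 (log2 fold change 0.31), KRT18 (0.35) and CDH1 (0.28). Among the lower were SFN (-0.46) and KRT6A (-1.03), the 1 past both thresholds, beside 3.03% of all tested genes in that direction. The tested genes within 5 Mb of SFN had a median of -0.31. Among markers of other cell types, 5 of 7 fibroblast markers were at or under the floor with PDGFRA and COL1A2 at 0 (summed 0.310 to 0.590 and 0.184 to 1.07 CPM), and CD3E was at 0 among the leukocyte markers. The leukocyte sum was 239 to 243 CPM in A431CT and 153 to 165 CPM in Dsg2KO, nearly all of it CD68, a lysosomal protein gene. The 4 endothelial markers summed to 8.45 to 11.3 and 15.1 to 15.7 CPM, with PECAM1 and CDH5 higher in Dsg2KO, and the 4 melanocyte markers to 3.02 to 4.50 and 3.42 to 3.85 CPM with MLANA at 0. Their part in the results was not tested, and in bulk RNA fewer cells of a type and less RNA per cell cannot be told apart.

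Among the 10 members, HBEGF alone passed both thresholds of the study, an adjusted p under 0.05 together with a log2 fold change of 0.5 or more in size, in edgeR's quasi-likelihood test. It was higher in Dsg2KO cells, beside 2.99% of all 12857 tested genes that passed both thresholds in that direction and 3.03% in the other. By adjusted p alone, EGFR, ERBB3 and TGFA were also higher and ERRFI1 was lower, all with smaller changes, so that 5 of 9 tested members passed this rule beside 29.6% of all tested genes (14.3% higher and 15.3% lower). ERBB2, AREG, EREG and BTC did not pass the test, and EPGN was too low to be tested. The 3 libraries of each condition did not overlap for these same 5 members, beside 42.6% of all tested genes (21.2% with Dsg2KO higher and 21.4% with Dsg2KO lower).

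**Figure D1:**
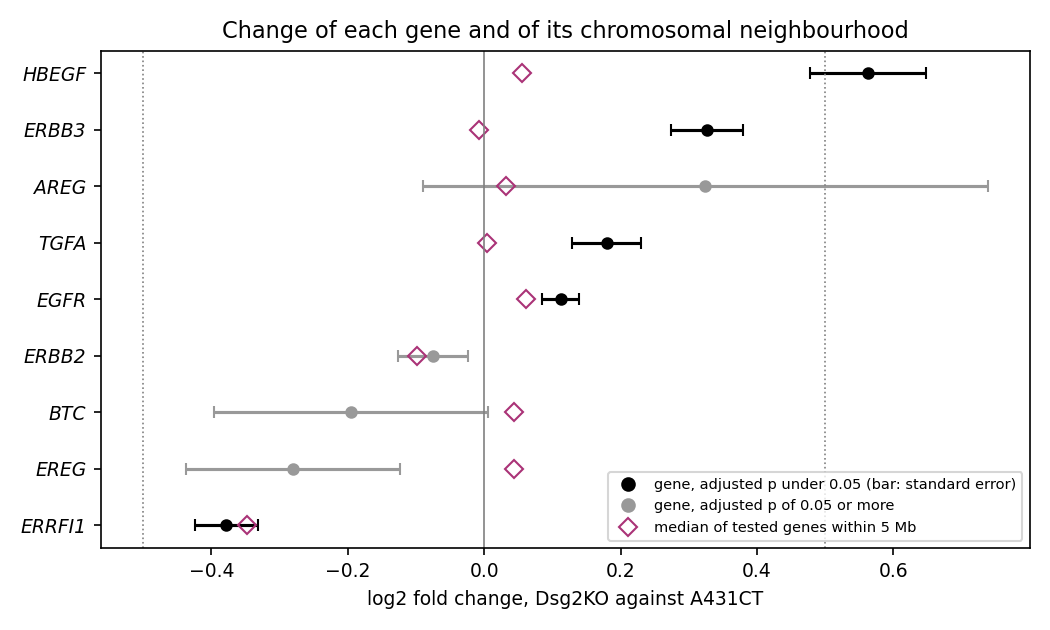
Log2 fold change of each tested member in Dsg2KO against A431CT cells (horizontal axis), from edgeR, with bars for the SE, and diamonds for the median log2 fold change of the tested genes within 5 Mb. The dotted lines mark 0.5 in either direction. HBEGF at 0.56 is the point beyond them, and ERRFI1 at -0.38 lies beside its local median of -0.35.

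EGFR, the receptor of all 6 ligands, was the gene with the most counts in each of the 6 libraries. It took 0.824%, 0.814% and 0.876% of all counts in A431CT libraries and 0.916%, 0.899% and 0.944% in Dsg2KO libraries, and the gene with the next most counts in each library was HSP90AB1, at 0.737% to 0.806%. The 95% Wilson interval of the A431CT shares ran from 0.809% to 0.881% at its extremes and that of the Dsg2KO shares from 0.895% to 0.949%, which covers counting error only and not the larger spread between replicates. Every Dsg2KO share was above every A431CT share.

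On the scale of CPM, EGFR was at 8323, 8190.4 and 8840.4 in A431CT libraries and at 9092, 8943 and 9368 in Dsg2KO libraries. The conditions did not overlap, though the highest control library lay close to the lowest Dsg2KO library. The log2 fold change was 0.11 (SE 0.03), or 1.08-fold (edgeR, adjusted p = 0.00579). Divided by the length of its canonical transcript (9905 bp), EGFR was at 853 ± 34.7 CPM per kb in A431CT and 922 ± 21.8 CPM per kb in Dsg2KO (SD, n = 3). Its mean over the 6 libraries, 888 CPM per kb, was 85.9 times the median of 10.3 CPM per kb over 12245 tested genes with a known length, and 26 of those genes were higher. EGFR-AS1, a non-coding gene on the opposite strand, overlaps EGFR. Whether counting used strand is not given in the sources used here, so the counts of EGFR may include reads of EGFR-AS1.

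**Figure D2:**
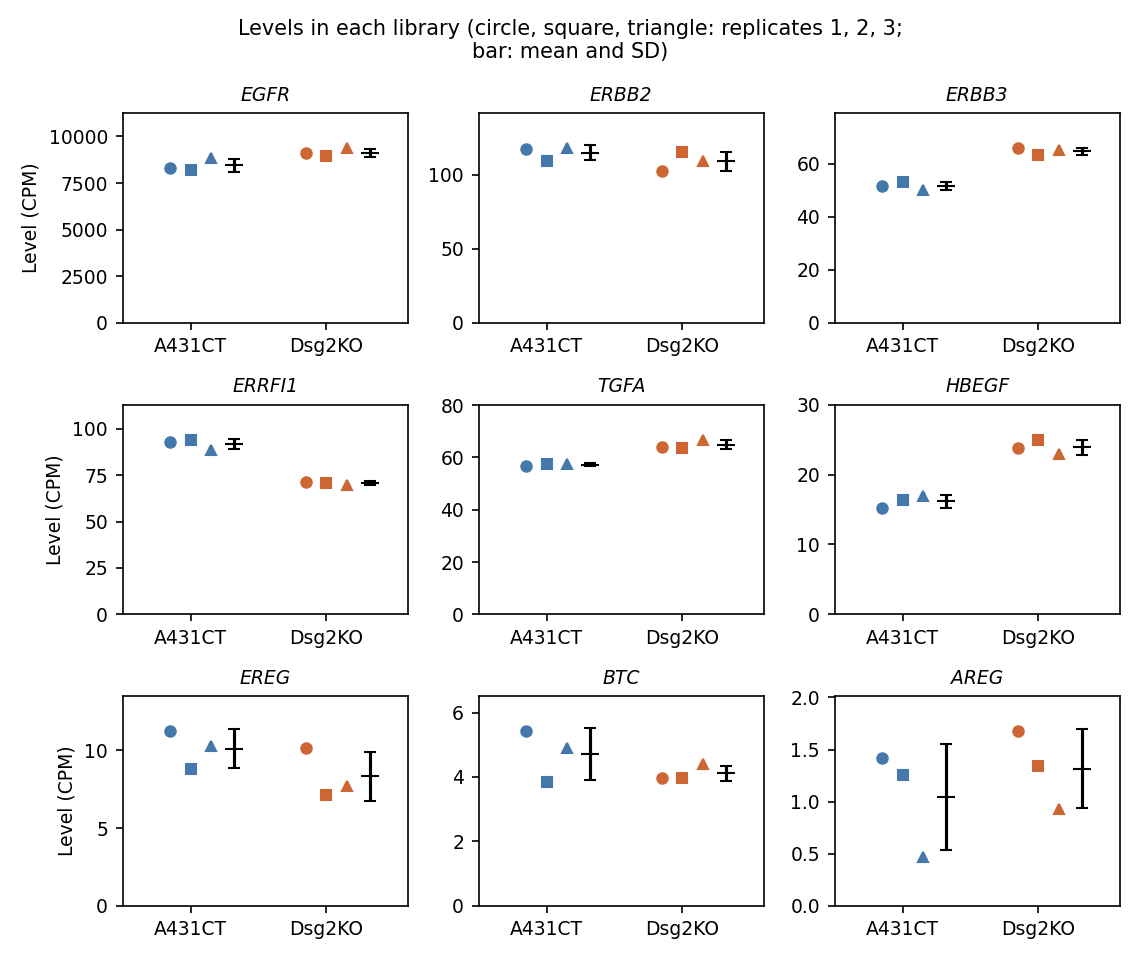
CPM of the 9 tested members in each library (points), with the mean and SD of the 3 libraries of A431CT and of Dsg2KO, each panel on its own linear axis from 0. The libraries of EGFR, ERBB3, HBEGF and TGFA are all higher and those of ERRFI1 all lower in Dsg2KO, and the other 4 genes overlap.

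Because A431 cells carry extra copies of the EGFR region, the tested genes nearest to EGFR (chr7:55019017-55211628) were read beside it. Over the 12 tested genes within 5 Mb, the median log2 fold change was 0.06, with 8 above 0, and EGFR lay 0.05 above that median. Of these genes only SEC61G and FIGNL1 start before EGFR. LANCL2, which starts 0.346 Mb after the start of EGFR, was at 144 CPM per kb in A431CT and 142 in Dsg2KO (log2 fold change -0.02). VOPP1, at 0.417 Mb, was at 179 and 209.8 CPM per kb (log2 fold change 0.23, adjusted p = 8.53e-05 in edgeR's test). NIPSNAP2, at 0.933 Mb, also passed the adjusted p with a log2 fold change of 0.23, while its neighbour MRPS17 was at 0.04 and ZNF713, a gene of few counts, at 0.10.

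On the other side, SEC61G at -0.267 Mb had a log2 fold change of 0.22 with an SE of 0.35, and Dsg2KO replicate 2 held 408 counts of it where the other Dsg2KO libraries held 116 and 118. Farther out, FIGNL1 was at 0.01 and CDC14C at 0.25, and neither passed the test. HUS1 (0.34, adjusted p = 0.0492) passed the adjusted p and UPP1 (0.52, adjusted p = 2.06e-04) both thresholds in edgeR's test, at -7.06 and -6.93 Mb. Within 5 Mb of HUS1, a window that does not reach EGFR, 24 of 27 tested genes were above 0. Their median was 0.105, beside 0.061 in the window around EGFR. By adjusted p 8 of the 27 were higher and 0 lower, beside 14.3% and 15.3% of all tested genes. The part of this region in the result for EGFR was not tested. A list of 16 genes of the EGFR region had 11 tested members with a median log2 fold change of 0.08, of which 2 passed the adjusted p, both higher, beside 14.3% of all tested genes, and none both thresholds. Neighbours thus lay on either side of the value of EGFR, and VOPP1 and NIPSNAP2 changed by more.

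**Figure D3:**
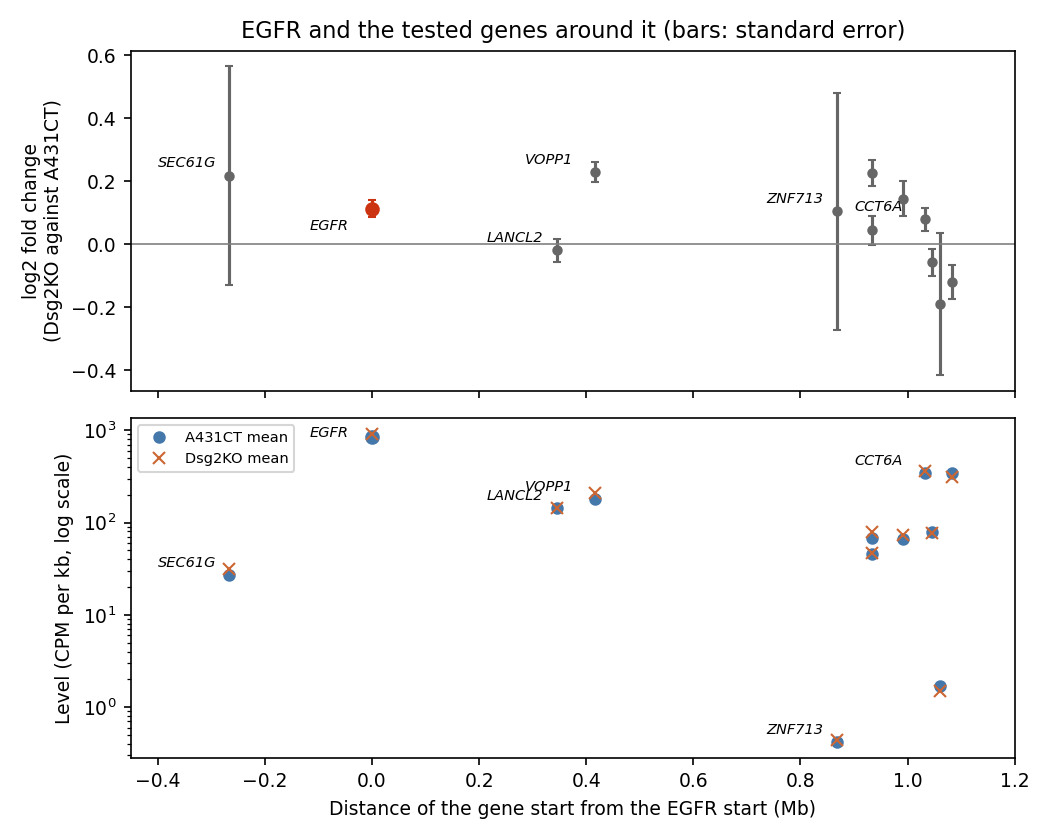
Tested genes around EGFR by distance of their start from the EGFR start in Mb (horizontal axis), with the log2 fold change and its SE in the upper panel and the mean level in CPM per kb, on a log axis, for A431CT and Dsg2KO in the lower panel. EGFR at 853 and 922 CPM per kb is the highest gene shown, and LANCL2 and VOPP1, the nearest genes after it, are at 142 to 209.8.

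ERBB3 rose in Dsg2KO cells and ERBB2 did not pass the test. ERBB3, a receptor with little kinase activity of its own that signals by pairing with ERBB2 or EGFR, was at 51.7, 52.9 and 50.2 CPM in A431CT and at 65.8, 63.3 and 65.2 CPM in Dsg2KO libraries. All Dsg2KO libraries were above all controls. Its log2 fold change was 0.33 (SE 0.05), or 1.25-fold (edgeR, adjusted p = 2.71e-04), and the 114 tested genes within 5 Mb had a median of -0.0080. ERBB3 is at chr12:56076799-56103505.

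ERBB2, which has no known ligand and serves as a partner of the others, was at 118, 109 and 118 CPM in A431CT and at 102, 115 and 109 CPM in Dsg2KO libraries. The conditions overlapped. The log2 fold change was -0.08 (SE 0.05, edgeR, adjusted p = 0.307), and it turned to 0.023 once the median of the 155 tested genes within 5 Mb of ERBB2 (chr17:39687914-39730426), -0.10, was taken off. PGAP3 and MIEN1 overlap ERBB2 on the opposite strand, so its counts may include reads of theirs. Annotated genes that are not among the counted symbols overlap ERBB3 and TGFA on the same strand and ERRFI1 on the opposite strand. The same limit holds for those members.

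Levels between receptors were compared per kb of transcript. ERBB2 was at 25.2 CPM per kb in A431CT and 23.9 in Dsg2KO, and ERBB3 at 9.19 and 11.5, so EGFR made up 96.1% and 96.3% of the 3 receptors' summed level. The ratio of ERBB2 to ERBB3 was 2.74 ± 0.186 in A431CT and 2.07 ± 0.164 in Dsg2KO (SD, n = 3, exact permutation test, two-sided, p = 0.1), and EGFR over ERBB3 was 92.9 and 80.0 (exact permutation p = 0.1). EGFR over ERBB2 lay the other way, at 33.9 in A431CT and 38.7 in Dsg2KO (exact permutation p = 0.1), with every Dsg2KO library above every control. With 3 libraries against 3, 0.1 is the smallest p this test can give. In both ratios over ERBB3, every A431CT library was above every Dsg2KO library. ERBB4, the remaining receptor of the family, had 5, 18 and 7 counts in A431CT and 8, 3 and 7 counts in Dsg2KO libraries and was not tested.

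HBEGF, a ligand that also binds heparan sulfate and is shed by ADAM17, was at 15.2, 16.4 and 17.0 CPM in A431CT and at 23.8, 25.0 and 22.9 CPM in Dsg2KO libraries. The lowest Dsg2KO library was well above the highest control. The mean rose from 16.2 ± 0.915 to 23.9 ± 1.05 CPM (SD, n = 3), a log2 fold change of 0.56 (SE 0.09) or 1.48-fold (edgeR, adjusted p = 1.61e-04). The 63 tested genes within 5 Mb of HBEGF had a median of 0.05, and with this taken off HBEGF was at 0.51.

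TGFA, a ligand with a high affinity for EGFR that keratinocytes secrete, was at 56.7, 57.4 and 57.7 CPM in A431CT and at 63.9, 63.8 and 66.8 CPM in Dsg2KO libraries. The conditions did not overlap, and the spread within A431CT was small. The log2 fold change was 0.18 (SE 0.05), or 1.13-fold (edgeR, adjusted p = 0.0149), and the 71 tested genes within 5 Mb had a median of 0.0039. The call by adjusted p was lost without A431CT replicate 1 (adjusted p = 0.0513) and without Dsg2KO replicate 3 (adjusted p = 0.0604).

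The 4 ligands of chromosome 4 did not pass the test or were not tested. EREG (epiregulin), which binds EGFR and ERBB4, was at 11.2, 8.77 and 10.3 CPM in A431CT and at 10.1, 7.16 and 7.73 CPM in Dsg2KO libraries. The lowest A431CT library lay within the Dsg2KO range, and the log2 fold change was -0.28 (SE 0.16, edgeR, adjusted p = 0.205). BTC (betacellulin), which binds the same receptors, was at 5.43, 3.83 and 4.88 CPM and at 3.96, 3.98 and 4.39 CPM, with a log2 fold change of -0.20 (SE 0.20, adjusted p = 0.514, edgeR). Its Dsg2KO libraries all lay within the range of the controls.

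AREG (amphiregulin), a ligand of EGFR alone, had only 18, 17 and 6 counts in A431CT and 25, 22 and 15 counts in Dsg2KO libraries, or 0.465 to 1.42 and 0.927 to 1.68 CPM. The conditions overlapped, the log2 fold change was 0.32 (SE 0.41, edgeR, adjusted p = 0.608), and without A431CT replicate 3 it was -0.023. EPGN (epigen) had 1, 0 and 1 counts and 0, 1 and 0 counts, at or under the floor in every library, so no fold is given. The 38 or 39 tested genes within 5 Mb of these 4 ligands had medians of 0.03 to 0.04.

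Summed over the ligands, the transcript level was higher in every Dsg2KO library than in any control. EGF itself was included in this sum although it had only 15, 18 and 9 counts in A431CT and 3, 0 and 5 counts in Dsg2KO libraries, too few to pass the filter. When every gene with a count was tested instead, EGF, whose Dsg2KO libraries were all below the controls, had a log2 fold change of -2.59 (SE 0.74, edgeR, adjusted p = 0.00674). Its Dsg2KO replicates 1 and 2 were at or under the floor, so the size of this fold is uncertain. In the same fit ERBB4, EPGN and NRG3 did not pass (edgeR, adjusted p = 0.359, 0.763 and 0.0939). The summed level of the 7 ligands was 26.1, 25.4 and 25.8 CPM per kb in A431CT and 30.7, 30.3 and 30.1 CPM per kb in Dsg2KO libraries. The conditions did not overlap, and the ratio of the means was 1.18 (exact permutation test, two-sided, p = 0.1).

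TGFA held the largest share of this sum in every library, and HBEGF the next. TGFA made up 54.0% ± 0.989 in A431CT and 51.9% ± 1.79 in Dsg2KO (SD, n = 3, exact permutation p = 0.2), with overlapping libraries. HBEGF made up 26.6% ± 1.70 and 33.4% ± 1.45 (exact permutation p = 0.1), with every Dsg2KO library above every control. EREG made up 8.49% in A431CT and 5.95% in Dsg2KO and BTC 6.89% and 5.11%, without overlap (exact permutation p = 0.1 for each), and AREG was at 3.29% and 3.51%. Shares of the same sum are tied together, so a higher HBEGF alone lowers the shares of the others. The levels of EREG and BTC themselves overlapped between conditions and did not pass the test. EGF was at 0.650% and 0.0879%, and EPGN at 0.0749% and 0.0251%. The ratio of EGFR to the summed ligands was 33.1 in A431CT and 30.4 in Dsg2KO.

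**Figure D4:**
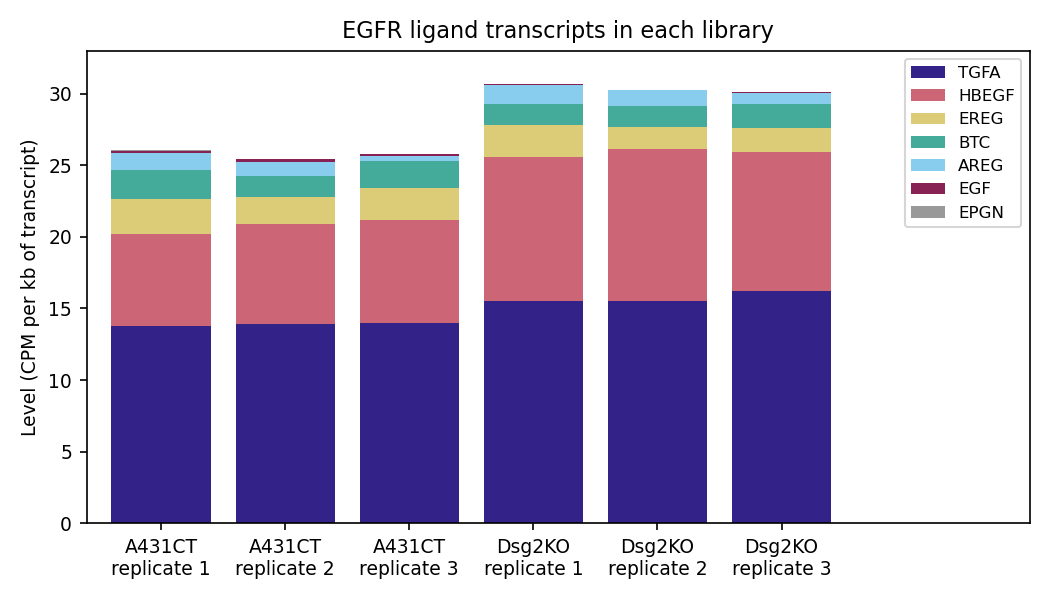
Stacked bars of the level of each EGFR ligand in CPM per kb of canonical transcript in each of the 6 libraries. The bars reach 25.4 to 26.1 in A431CT and 30.1 to 30.7 in Dsg2KO, with TGFA and HBEGF as the largest parts of each bar.

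ERRFI1 (also called MIG6), which binds the active EGFR kinase and blocks it, was at 92.8, 94.2 and 88.7 CPM in A431CT and at 71.5, 71.0 and 69.7 CPM in Dsg2KO libraries. All Dsg2KO libraries were below all controls. The log2 fold change was -0.38 (SE 0.05), a level 77.0% of that in A431CT (edgeR, adjusted p = 2.81e-05). The genes around it moved as well. Of the 70 tested genes within 5 Mb of ERRFI1 (chr1:8004404-8026309), 4 had a log2 fold change above 0, 51 were lower by adjusted p, and the median was -0.35, so that ERRFI1 differed from its neighbours by -0.030. The part of this region in the result was not tested. Per kb, the ratio of EGFR to ERRFI1 was 28.8 ± 2.10 in A431CT and 40.4 ± 1.45 in Dsg2KO (SD, n = 3, exact permutation p = 0.1).

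The neuregulins, ligands of ERBB3 or ERBB4 or of both, were measured beside the EGFR ligands. NRG1 was at 126, 119.5 and 147 CPM in A431CT and at 93.1, 88.8 and 104 CPM in Dsg2KO libraries, without overlap. Its log2 fold change of -0.45 (SE 0.07, edgeR, adjusted p = 2.47e-04) did not reach 0.5, but passed it without A431CT replicate 2 (-0.51) or without Dsg2KO replicate 3 (-0.52). NRG1 thus moved the opposite way to ERBB3, its receptor, and the ratio of NRG1 to the summed EGFR ligands was 0.423 in A431CT and 0.263 in Dsg2KO. NRG2 (-0.19, adjusted p = 0.577) and NRG4 (-0.39, adjusted p = 0.174) did not pass edgeR's test, and NRG3 had 17 counts in A431CT replicate 2 and 1 or 2 in each other library.

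For each of EGFR and HBEGF, the genes whose log2 CPM followed it most closely over the 6 libraries were found, as a description in which the points share the same 2 conditions and library scaling. The closest to EGFR were DIAPH1, a formin that nucleates actin (Pearson r = 0.998), and SLC35A5 (r = 0.996). For HBEGF they were USP6NL, a RAB GTPase-activating protein that acts in EGFR uptake (r = 0.999, log2 fold change 0.31), and ADARB1, an RNA-editing enzyme (r = 0.997, log2 fold change 0.47). These genes were picked from 12857 for their likeness, and nothing is read from the size of r.

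Of 79 tested genes in lists of EGFR pathway genes, 4 passed both thresholds, all in the list of ERK output and feedback, beside 6.03% of all tested genes. The enzymes that free the ligands (8 of 10 tested) had a median log2 fold change of 0.06, against -0.0048 over all tested genes, and none passed both thresholds. By adjusted p alone, which 29.6% of all tested genes passed, ADAM9 (0.11) and ADAM15 (0.23) were higher. By the same rule in edgeR's test, ADAM17 (-0.20, adjusted p = 0.0495), the main sheddase of HBEGF, TGFA and AREG, was lower, close to the threshold. Its cofactor FRMD8 (-0.29, adjusted p = 1.80e-04, edgeR) was also lower. Among 26 adaptors, RAS proteins and kinases, all tested, the median was -0.02, and none passed both thresholds. By adjusted p 5 were higher and 5 lower, beside 14.3% and 15.3% of all tested genes. Among the higher were NRAS (0.17, local median 0.21) and PIK3CA (0.21, local median -0.01). Among the lower were GRB2 (-0.12, local median -0.06) and SHC1 (-0.15, local median 0.03).

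Of 23 tested genes for receptor uptake, sorting and negative regulation, 7 were higher and 2 lower by adjusted p (14.3% and 15.3% of all tested genes), none passed both thresholds, and the median was 0.04. Those higher include CBL (0.27), the ubiquitin ligase that marks EGFR for degradation, PTPRJ (0.30), a phosphatase that acts on EGFR, and CAV1 (0.29), the coat protein of caveolae. The others higher were CBLC (0.32, local median -0.03), SH3KBP1 (0.24, local median -0.01), RNF41 (0.20, local median -0.0080) and EPS15 (0.19, local median -0.24). Those lower were EPN1 (-0.28), an endocytic adaptor, and HGS (-0.22), which sorts ubiquitylated receptors. Local medians were 0.02 for EPN1 and -0.17 for HGS, and 0.05, 0.04 and -0.02 for CBL, PTPRJ and CAV1. The list of other EGF family genes had 3 of 6 tested members with a median of -0.39, of which only NRG1 passed the adjusted p.

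ERK output and feedback genes had the highest median of the 5 lists, 0.22 over 19 of 22 tested genes. By adjusted p 8 were higher and 2 lower, beside 14.3% and 15.3% of all tested genes, and 3 passed both thresholds higher and 1 lower, beside 2.99% and 3.03%. DUSP4, a phosphatase that inactivates ERK, was at 12.7, 13.1 and 16.0 CPM in A431CT and at 43.1, 38.4 and 40.2 CPM in Dsg2KO libraries, a log2 fold change of 1.54 (SE 0.09, edgeR, adjusted p = 2.14e-08). The Sprouty genes SPRY4 and SPRY1, feedback inhibitors of receptor tyrosine kinase signalling, rose by 0.68 (SE 0.09, edgeR, adjusted p = 3.88e-05) and 0.63 (SE 0.14, adjusted p = 0.00271). In all 3 genes every Dsg2KO library was above every control.

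EPHA2, an ephrin receptor, was lower by adjusted p and fold, at 137 ± 8.86 CPM in A431CT and 94.5 ± 2.35 CPM in Dsg2KO (SD, n = 3, log2 fold change -0.54, SE 0.05, edgeR, adjusted p = 1.90e-06). The 67 tested genes within 5 Mb of it, on chromosome 1 like ERRFI1, had a median of -0.32. ETV5 (0.45), CCND1 (0.40), IER3 (0.39), FOSL1 (0.36) and HMGA1 (0.22) were higher and PHLDA1 (-0.12) lower by adjusted p alone. DUSP6 (0.02), EGR1 (-0.13) and FOS (0.33), which also respond to ERK, did not pass the test.

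**Figure D5:**
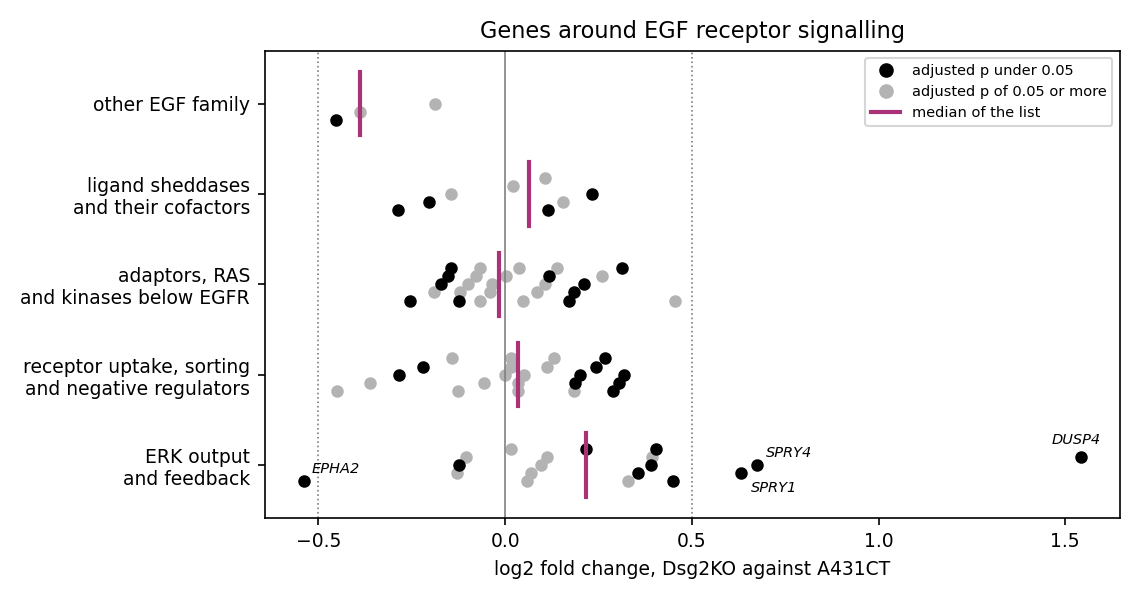
Log2 fold change in Dsg2KO against A431CT (horizontal axis) of each tested gene in the 5 lists of EGFR pathway genes (points), with a bar at the median of each list. The ERK output and feedback list has the highest median, 0.22, and the widest range, from -0.54 for EPHA2 to 1.54 for DUSP4.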

How the data were processed

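PolyA RNA of 3 A431CT and 3 Dsg2KO libraries was sequenced as paired ends with the NEBNext Ultra RNA kit. The authors aligned the reads to GRCh38 in CLC Genomics Workbench 23 and deposited raw counts per gene symbol, and the gene annotation is not given in the sources used here. Libraries held 12845719 to 16255692 counts, and the replicates of a condition varied beyond counting error. The study calls them biological replicates, 3 per condition. The labels do not say that replicates are separate cultures, so p-values measure the spread between these libraries, part of which may be technical.

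Counts were tested in R 4.3.3 with edgeR 4.0.16 (TMM factors of 0.990 to 1.01, filterByExpr with a minimum count of 10 and a minimum total of 15, quasi-likelihood F test without covariates, Benjamini-Hochberg adjustment over 12857 genes). A gene was called with an adjusted p under 0.05 if its log2 fold change was also 0.5 or more in size. Log2 CPM for correlations used a prior count of 2. Summed ligands and ratios were compared by exact permutation over libraries. Lengths and positions come from GENCODE 44, which matched 19478 of 21462 symbols, and the local median covers tested genes that start within 5 Mb. Promoters are RefSeq windows. The code was tested on simulated data.

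Named genes are the 10 members, DSG2, EGF, ERBB4, the neuregulins, list genes past both thresholds, the 5 tested genes nearest EGFR on each side, and the 2 genes most like EGFR and each called member. HSP90AB1, cell type markers and list genes past the adjusted p alone or singled out beside them were named after their values were seen. The members and lists were chosen with earlier results of these data known. Alternatives were other filters, RLE factors, total counts, DESeq2 1.42.0, the likelihood ratio test, a replicate block, other fold minimums, other lengths, and each library left out. Figures used Python 3.11.15 and matplotlib 3.10.9.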

Additional observations from a re-analysis of the deposited data

How the results depend on the processing

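HBEGF passed both thresholds under every alternative except a minimum absolute log2 fold change of 1, at which 0 members passed, and without a fold minimum 5 members passed, 4 higher and 1 lower. The count of pathway genes past both thresholds was 4, rose to 34 (22 higher, 12 lower) without a fold minimum, fell to 1 with a minimum of 1, and ranged from 4 to 6 with a library left out. ERBB2 turned from -0.08 to 0.023 when its local median was taken off, and AREG from 0.32 to -0.023 without A431CT replicate 3, whose 6 counts limit its precision (-0.023 to 0.60 over the libraries left out). Of 138 alternatives for single genes, 134 kept the direction and the call by both thresholds combined, and 2 moved NRG1 past both. With local medians taken off, ERRFI1 went from -0.38 to -0.030 and EGFR from 0.11 to 0.051. Both are counted among the kept, since neither had passed both thresholds. That setting has no p-value of its own. TGFA missed the adjusted p alone without A431CT replicate 1 (0.0513) or Dsg2KO replicate 3 (0.0604). The log2 ratio of summed ligands was 0.24, and between 0.18 (no division by length) and 0.26 (total counts only). The member count with local medians taken off (1) and the ligand sum by exon-union length (0.23) were chosen after seeing the data. Libraries of the same replicate number had residual correlations of -0.0027, 0.014 and 0.054. These cannot show that single genes are unpaired, and the labels do not say whether the numbers pair libraries. EGFR and NRG1 had the same order of replicates in both conditions. A replicate block gave 1 member and 4 pathway genes past both thresholds. With it the edgeR adjusted p was smaller for EGFR (3.00e-04) and NRG1 (6.37e-06), and larger for ERBB3, HBEGF, TGFA and ERRFI1.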
